A study of Mus musculus with 12 samples.

Results

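The genes considered here are the 4 Janus kinase genes of the mouse, Tyk2, Jak1, Jak2 and Jak3. They were chosen by name and matched to the table through their Ensembl identifiers, and all 4 were found among its 54232 gene identifiers. All 4 also passed the minimum of a mean normalised read count of 10 that left 13129 genes for testing. Because the choice was by family and not by level, every comparison below could be tested. The genes and tests were, however, chosen with earlier results of these data known.

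RNA was sequenced from NK cells (CD45+, CD3ε-, NK1.1+) and CD8 T cells (CD45+, CD3ε+, CD8a+) sorted from MC38 tumours, transplants of a mouse colon adenocarcinoma line grown under the skin of both flanks and taken on days 8 to 10. Wild-type mice (WT, C57BL/6N) were compared with Tyk2-/- mice (KO, labelled TYK2KO) and with mice whose Tyk2 carries K923E, the exchange of a lysine for a glutamate that leaves TYK2 without kinase activity (KE, labelled TYK2KE). The mice were sex- and age-matched at 6 to 12 weeks and received no other treatment, and both mutations were carried in every cell of the mouse, the tumour cells excepted. Each of the 6 groups of cell type and genotype had 2 libraries, each made from 300 sorted cells, and nothing in the sources used here says whether the libraries of a group came from separate mice, so that p-values measure the spread between these libraries.

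Janus kinases are tyrosine kinases bound to the inner tails of cytokine receptors. When a cytokine brings 2 receptor chains together, the kinases on the chains activate each other and phosphorylate STAT transcription factors, which then enter the nucleus. TYK2 acts beside JAK1 at the receptor of type I interferons and beside JAK2 at the receptors of IL-12 and IL-23, JAK1 with JAK2 at the receptor of interferon gamma, and JAK1 with JAK3 at the receptors that use the common gamma chain, such as those of IL-2 and IL-15. NK cells depend on IL-15 and are activated by IL-12 and type I interferon, and CD8 T cells depend on IL-7 and expand with IL-2. The comparison of the genotypes asks at the level of transcripts whether JAK1, JAK2 or JAK3 is raised where TYK2 or its activity is missing.

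The site of the KE mutation is shown first, since the same position exists in all 4 genes. The sequences below are 45 bases of coding exon on the strand of the gene, 5′ to 3′, and the capitals mark the codon of the lysine that holds ATP in the kinase domain. It was located in each gene as the lysine codon that follows codons for valine, alanine and valine.
Tyk2: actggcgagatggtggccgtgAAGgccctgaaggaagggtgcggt
Jak1: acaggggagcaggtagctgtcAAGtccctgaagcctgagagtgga
Jak2: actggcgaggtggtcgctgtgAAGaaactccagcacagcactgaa
Jak3: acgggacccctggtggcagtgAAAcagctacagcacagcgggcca

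In the GRCm38 build with the GENCODE M21 transcripts, the window of Tyk2 is chr9:21109332-21109376 in exon 20 of transcript Tyk2-203, where the lysine is codon 927 from the annotated start and has the number in the name of the allele when counted from a later in-frame ATG. That transcript and ATG were picked because they give this number, and the lysine is codon 950 in Tyk2-201 and Tyk2-206. The window of Jak1 is chr4:101157851-101157895 in exon 20 of Jak1-201, that of Jak2 is chr19:29300960-29301004 in exon 19 of Jak2-201, and that of Jak3 is chr8:71685436-71685480 in exon 19 of Jak3-201. Each window lies within a single exon. Tyk2 shared 30 of the 45 bases with Jak1, 28 with Jak2 and 23 with Jak3. The counts hold reads from the whole length of a gene, so that a count does not tell the mutated from the normal codon.

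The genes lie on 4 chromosomes. Tyk2 (ENSMUSG00000032175) spans chr9:21104068-21131243 on the minus strand, Jak1 (ENSMUSG00000028530) chr4:101152367-101265282 on the minus strand, Jak2 (ENSMUSG00000024789) chr19:29251828-29313080 on the plus strand and Jak3 (ENSMUSG00000031805) chr8:71676296-71690575 on the plus strand. Jak3 shares 404 exon bases, 9.05% of its exon length, with Insl3 on the same strand, and Insl3 lay at 0 to 2.84 CPM (counts scaled to 1000000 per library with TMM factors). Jak1 shares 4 exon bases with Raver2 on the other strand, and the counting is not stated to use strand. In RefSeq promoter windows of 300 bases around the gene starts of the GRCm38.p6 assembly, the STAT motif TTCNNNGAA and the interferon response core GAAANNGAA were looked for on both strands. They occurred in 8.30% and 8.56% of 32851 promoters and, of the 4 promoters of this family, in 0 and in 1. The match was in Jak3, GAAACTGAA at position -143 from its start, and such a match describes letters and not a bound site.

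Total counts per library ranged from 10378761 to 14732882, and 12776 to 14015 genes had a count. Marker genes of the cell types followed the labels. The 5 NK genes (Ncr1, Klrb1c, Klrd1, Klre1 and Eomes) summed to 3441 to 7283 CPM in NK and 1320 to 2065 CPM in CD8 libraries. The 5 CD8 T cell genes (Cd3e, Cd3d, Cd3g, Cd8a and Cd8b1) summed to 9451 to 12486 CPM in CD8 and 42.2 to 318 CPM in NK libraries. Within NK libraries, the NK genes summed to 3441 to 4750 CPM in WT and 5161 to 7283 CPM in the mutants. The genes of macrophages and monocytes, 10 of 10 in the table, set 3 NK libraries apart. They summed to 9030 and 8141 CPM in NK WT 1 and 2 and to 5290 CPM in NK KO 1, against 23.9 CPM in NK KO 2, 61.4 to 258 CPM in NK KE and 50.1 to 396 CPM in the CD8 libraries. Both NK WT libraries and neither NK KE library are among them, so that genotype and this content cannot be told apart for KE against WT in NK cells, while the NK KO libraries differ in it, and values without single libraries are given where they differ. In sorted pools of this kind fewer expressing cells and less RNA per cell cannot be told apart.

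Tyk2, the targeted gene, was not lower in the libraries labelled KO. In NK cells it lay at 60.6 and 68.5 CPM in WT, 55.8 and 104 CPM in KO and 119 and 81.6 CPM in KE. The CD8 values were 48.7 and 86.8 CPM for WT, 62.4 and 74.4 CPM for KO and 59.6 and 47.1 CPM for KE. The KO range overlapped the WT range in both cell types, and the KE libraries lay above both WT libraries in NK cells while overlapping them in CD8 T cells. On the log2 scale KO differed from WT by 0.31 in NK cells (95% CI -0.77 to 1.39, edgeR FDR 1) and by 0.01 in CD8 T cells (95% CI -1.06 to 1.09, edgeR FDR 1). A KO allele can leave a transcript that makes no protein, and the table does not show which exons the reads came from. The methods of the study give the allele tm1Biat for the tumour experiment, while its sample sheet tags the KO libraries with CMV, as in the name of another Tyk2-/- strain that also lists a CMV-cre transgene, and which strain the libraries came from was not settled here. KO and KE therefore stand for the labels throughout.

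Jak1 was the most abundant of the family. It lay at 1212 and 984 CPM in NK WT, 1054 and 1581 CPM in NK KO and 1252 and 1186 CPM in NK KE. The CD8 values were 597 and 602 CPM for WT, 552 and 617 CPM for KO and 788 and 528 CPM for KE. Within each cell type the genotypes overlapped. All 6 NK libraries lay above all 6 CD8 libraries.

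Jak2, the partner of TYK2 at the IL-12 receptor, showed no such separation. It lay at 53.2 and 60.2 CPM in NK WT, 16.6 and 90.7 CPM in NK KO and 80.7 and 54.1 CPM in NK KE. The CD8 values were 92.4 and 45.2 CPM for WT, 47.0 and 41.4 CPM for KO and 83.1 and 64.1 CPM for KE. All mutant groups overlapped WT, and NK KO held both the lowest and the second highest of the 12 values. The read counts behind these were 214 and 1232, a 5.47-fold gap in CPM between the NK KO replicates.

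Jak3, the kinase of the common gamma chain, had the widest spread. It lay at 91.8 and 13.3 CPM in NK WT, 17.5 and 28.6 CPM in NK KO and 27.9 and 58.5 CPM in NK KE. The CD8 values were 33.6 and 109 CPM for WT, 49.3 and 35.9 CPM for KO and 26.3 and 32.9 CPM for KE. NK WT held the second highest and the lowest of all values, a 6.89-fold gap between replicates at 1100 and 174 counts. The macrophage genes summed to 9030 and 8141 CPM in the same 2 libraries, and their part in the Jak3 values was not tested. Both CD8 KE libraries lay below both CD8 WT libraries, of which WT 2 was far above the rest.

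**Figure D1:**
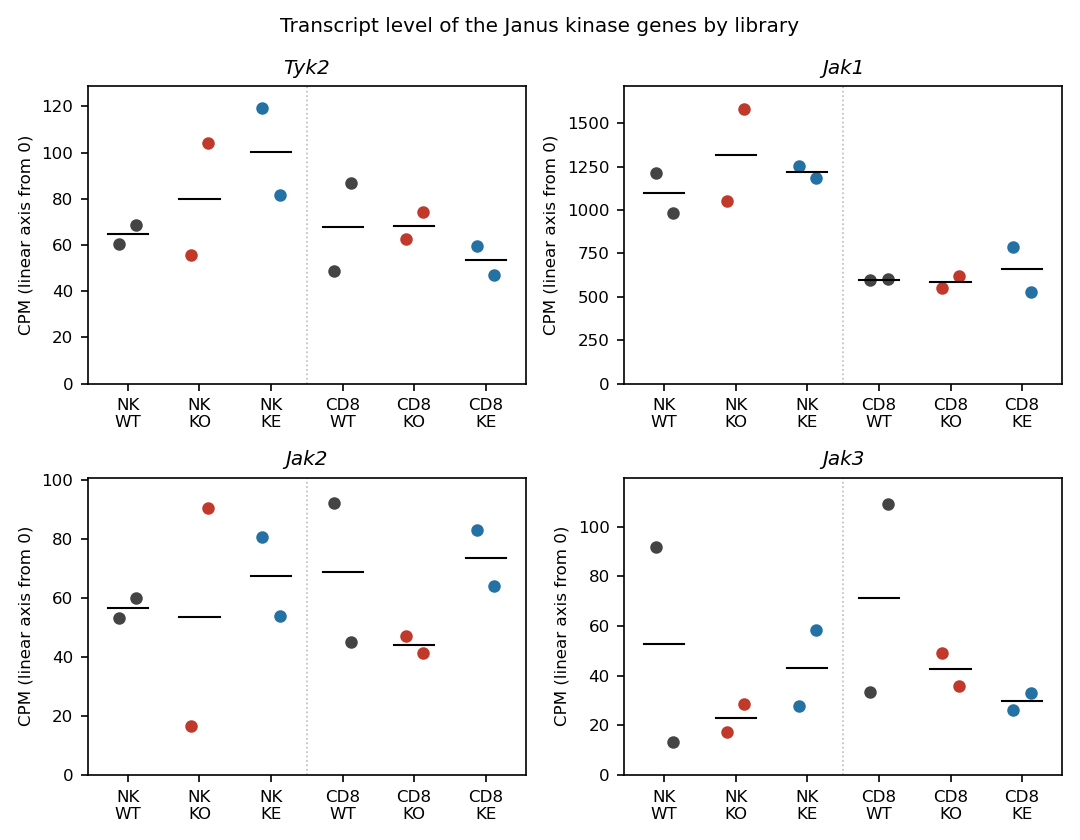
Transcript level of Tyk2, Jak1, Jak2 and Jak3 in CPM (linear axes from 0) for each of the 12 libraries, with points for the 2 replicates of a group (replicate 1 on the left; black WT, red KO, blue KE) and a line at their mean. Jak1 lies between 984 and 1581 CPM in the NK libraries and between 528 and 788 CPM in the CD8 libraries, while the replicates of Jak2 in NK KO and of Jak3 in NK WT differ by 5.47 and 6.89 times.

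Over all groups the estimated spread between replicates was smallest for Jak1 and largest for Jak3. The biological coefficient of variation that edgeR estimated for each gene was 26.2% for Jak1, 41.4% for Tyk2, 54.9% for Jak2 and 67.3% for Jak3, against a median of 97.8% over all genes tested. Jak1 was more abundant than 99.1% of the genes tested, Tyk2 than 78.3%, Jak2 than 74.4% and Jak3 than 66.8%. The replicates of Jak1 differed by at most 1.50 times in any group and those of Tyk2 by at most 1.87 times, although in single groups Jak1 was not always the closest (1.49 times in CD8 KE, against 1.27 for Tyk2). A change of a given size was therefore most readily seen in Jak1 and least in Jak3.

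To compare the 4 genes with each other, CPM were divided by the length of the merged exons in kilobases. On this per-length scale Jak1 averaged 247 ± 42.3 CPM per kilobase in NK libraries (SD, n = 6) and 125 ± 18.7 in CD8 libraries (n = 6). Tyk2 averaged 14.7 ± 4.55 and 11.4 ± 2.75, Jak2 11.8 ± 5.14 and 12.4 ± 4.27, and Jak3 8.87 ± 6.73 and 10.7 ± 6.95 CPM per kilobase. Jak1 lay above the other 3 genes in 12 of 12 libraries, at 7.86 to 22.7 times the level of Tyk2. The order of the other 3 was not stable. Tyk2 was above Jak2 in 9 of 12 libraries and above Jak3 in 10, and Jak2 above Jak3 in 7. The order Jak1, Tyk2, Jak2, Jak3 held in 4 of 12 libraries and in the means of 2 of the 6 groups, NK KO and NK KE, and in those of 4 groups when the coding length was used.

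As a share of the family on the per-length scale, Jak1 made up 85.4% to 92.6% in the NK libraries and 71.4% to 82.9% in the CD8 libraries. Tyk2 made up 3.77% to 7.16% and 5.53% to 9.09%. The sum of the 3 genes other than Tyk2 was 278 and 216 CPM per kilobase in NK WT, 222 and 347 in NK KO and 278 and 266 in NK KE. For CD8 T cells the WT sums were 148 and 156, the KO sums 133 and 142 and the KE sums 183 and 128. The sums of the mutants overlapped those of WT in NK KO, NK KE and CD8 KE, and both CD8 KO libraries lay below both CD8 WT libraries.

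**Figure D2:**
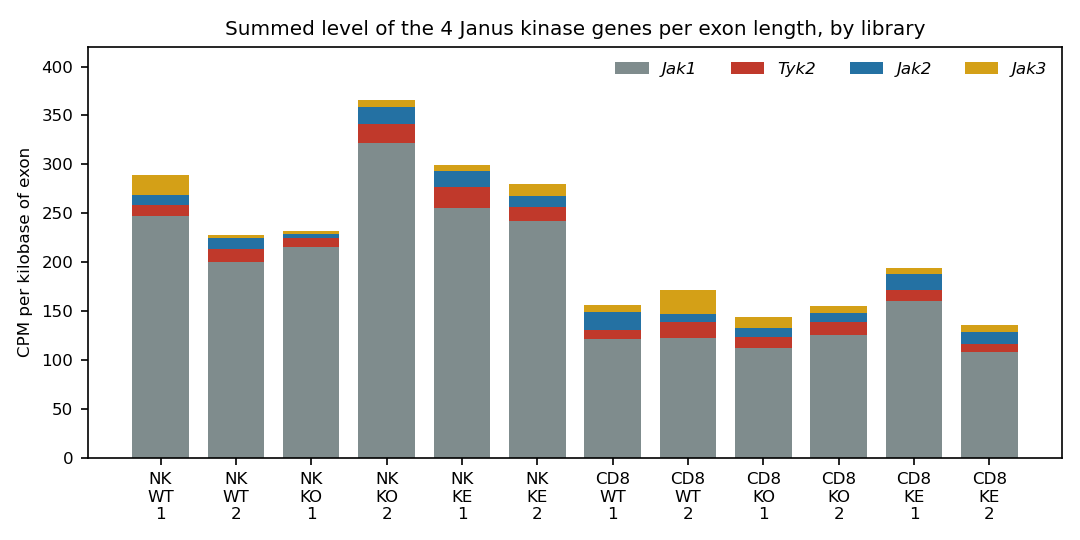
Level of Jak1 (grey), Tyk2 (red), Jak2 (blue) and Jak3 (yellow) in CPM per kilobase of exon, stacked for each of the 12 libraries on an axis from 0. Jak1 makes up 71.4% to 92.6% of every bar, and the bars of the NK libraries are taller than those of the CD8 libraries.

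The orders of the groups by mean CPM differed between the 4 genes. For Tyk2 it ran from NK KE (100.4 ± 26.5 CPM, SD, n = 2) through NK KO, CD8 KO, CD8 WT and NK WT to CD8 KE (53.4 ± 8.86 CPM), and each group overlapped the next except NK WT and CD8 KE. For Jak1 it ran from NK KO (1318 ± 372 CPM) through NK KE (1219 ± 46.9 CPM) and NK WT (1098 ± 161 CPM) to CD8 KE, CD8 WT and CD8 KO (584 ± 46.5 CPM), and the only neighbours that did not overlap were NK WT and CD8 KE. For Jak2 the group means ran from 73.6 ± 13.4 CPM in CD8 KE to 44.2 ± 3.99 CPM in CD8 KO, and every group overlapped the next. For Jak3 they ran from 71.5 ± 53.5 CPM in CD8 WT to 23.1 ± 7.87 CPM in NK KO, and CD8 KO and CD8 KE were the only neighbours without overlap.

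In NK cells, none of the other 3 kinases passed the test in a mutant. Jak1 was 1.20-fold WT in KO (95% CI 0.828 to 1.74) and 1.11-fold in KE (95% CI 0.766 to 1.61). Jak2 was 0.947-fold WT in KO (95% CI 0.315 to 2.84) and 1.19-fold in KE (95% CI 0.396 to 3.57). Jak3 was 0.439-fold WT in KO (95% CI 0.106 to 1.82) and 0.821-fold in KE (95% CI 0.202 to 3.33). These intervals contain a rise of up to 1.74 times in Jak1 and larger ones in Jak2, so that the data do not show an absence of compensation. A call required an FDR under 0.05 and a change of at least 2-fold either way.

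For KO in NK cells, edgeR called 0 of the 4 genes and 0% of all genes tested, and 0 of the 4 had an unadjusted p under 0.05, against 6.35% of all genes. DESeq2 called 0 of the 4 and 2.84% of all genes. For KE, 0 of the 4 were called by edgeR and 0 by DESeq2, with 0% and 2.94% of all genes, and 0 had an unadjusted p under 0.05 against 6.06%. The direction of Jak3 turned with single libraries. Without NK WT 1 its log2 fold change went from -1.19 to 0.79 in KO and from -0.28 to 1.69 in KE, and without NK KE 1 that in KE went to 0.15. For Jak2 the value in KO was -0.08 on the log2 scale, 0.68 without NK KO 1, -1.77 without NK KO 2 and 0.013 without NK WT 2, and that of Tyk2 was 0.31 and -0.21 without NK KO 2.

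For CD8 T cells, where the macrophage genes summed to at most 396 CPM in every library, the other 3 kinases did not pass the test either. Jak1 was 0.975-fold WT in KO (95% CI 0.673 to 1.41) and 1.10-fold in KE (95% CI 0.757 to 1.59). Jak2 was 0.643-fold WT in KO (95% CI 0.213 to 1.94) and 1.07-fold in KE (95% CI 0.356 to 3.21). Jak3 was 0.596-fold WT in KO (95% CI 0.146 to 2.43) and 0.415-fold in KE (95% CI 0.100 to 1.72). The smallest FDR among these was 0.864, that of Jak3 in KE.

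Of the 4 genes, edgeR called 0 for CD8 KO and 0 for CD8 KE, where it called 0.0533% and 0.0838% of all genes. DESeq2 called 0 and 0 of the 4, against 1.75% and 2.5% of all genes, and the counts at an unadjusted p under 0.05 were 0 and 0, against 4.84% and 5.62%. The value of Jak3 rested on CD8 WT 2, without which it went from -0.75 to 0.34 in KO and from -1.27 to -0.17 in KE on the log2 scale. For Tyk2 in KE it went from -0.34 to 0.15 without that library. Jak2 in KO went from -0.64 to -0.04 without CD8 WT 1.

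With both mutants and both cell types pooled, the intervals were narrower. Mutants against WT gave a log2 fold change of 0.13 for Jak1 (SE 0.15, 95% CI -0.20 to 0.46), which is 1.09-fold with an upper limit of 1.37-fold. Tyk2 gave 0.15 (95% CI -0.51 to 0.82) and Jak2 -0.09 (95% CI -1.06 to 0.88). Jak3 gave -0.87 (95% CI -2.08 to 0.33, unadjusted p 0.138 by edgeR, FDR 0.700), and 0.12 without NK WT 1. None was called by edgeR or DESeq2 and 0 of 4 had an unadjusted p under 0.05, while these took 0.427%, 3.45% and 9.96% of all genes. The median log2 fold change was 0.02 over the 4 genes and -0.04 over all genes tested.

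The libraries labelled KO and KE were also compared directly. KO against KE in NK cells gave log2 fold changes of -0.33 for Tyk2, 0.11 for Jak1 (95% CI -0.42 to 0.65), -0.33 for Jak2 and -0.90 for Jak3. With 1 library left out, Jak2 ranged from -2.02 to 0.43 and Jak3 from -1.34 to -0.27. The CD8 values were 0.36 for Tyk2, -0.17 for Jak1 (95% CI -0.71 to 0.36), -0.74 for Jak2 (95% CI -2.33 to 0.86) and 0.52 for Jak3. By edgeR 0 of the 4 were called in either cell type, as for 0% and 0% of all genes, and by DESeq2 0, against 1.56% and 1.19%. At an unadjusted p under 0.05 there were 0 of the 4, against 3.85% of all genes in NK cells and 3.66% in CD8 T cells. The intervals for Jak2 and Jak3 span more than 2-fold in both directions in NK cells, so that KO and KE cannot be said to act alike on them.

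The mutant effect was then set against itself in the 2 cell types, as the mean of KO and KE minus WT in NK cells less the same in CD8 T cells. With all libraries the difference was largest for Tyk2, at 0.64 on the log2 scale (95% CI -0.68 to 1.96, FDR 1.00 by edgeR). It was 0.16 for Jak1 (95% CI -0.50 to 0.81), 0.35 for Jak2 and 0.27 for Jak3. With 1 library left out it ranged from 0.17 to 1.01 for Tyk2, -0.49 to 0.79 for Jak2 and -0.80 to 2.25 for Jak3. By edgeR and DESeq2 0 of the 4 were called, against 0.0152% and 2.03% of all genes, and 0 had an unadjusted p under 0.05, against 5.74%.

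The clear difference in the family was that of Jak1 between the cell types. Over all genotypes Jak1 was 1.97-fold higher in NK cells than in CD8 T cells (95% CI 1.59 to 2.45), with a log2 fold change of 0.98 (SE 0.14) and an FDR of 0.00243 by edgeR. The fold was just under the 2-fold needed for a call, so that edgeR called 0 of the 4 genes, where it called 4.59% of all genes. DESeq2 put Jak1 at 1.01 on the log2 scale (FDR 7.01e-09) and called it, the only one of the 4, where it called 12.1% of all genes. Jak1 was also the only one of the 4 with an unadjusted p under 0.05, against 19.4% of all genes. The 6 NK libraries lay above the 6 CD8 libraries, from 984 CPM up against 788 CPM down, which was the case for 1.99% of all genes tested (4.96% did not overlap in either direction). The share of counts from mitochondrial genes also moved with the cell type, at 2.40% to 4.64% in NK and 4.50% to 7.68% in CD8 libraries, and its part in the Jak1 difference was not tested. The FDR of Jak1 stayed between 0.00235 and 0.0117 when each of the 12 libraries was left out, while its fold passed 2 in 5 of these 12 fits.

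Within each genotype the difference in Jak1 had the same direction. In WT it was 1.83-fold (95% CI 1.26 to 2.66, edgeR unadjusted p 0.00461, FDR 0.179). In KO it was 2.25-fold (edgeR FDR 0.0627) and in KE 1.85-fold (edgeR FDR 0.179), both from contrasts added after the data were seen, where edgeR called 0.914% and 0.8% of all genes. DESeq2 called Jak1 in KO (log2 1.21, FDR 0.000352) and not in KE, where the FDR was 0.0158 but the log2 value 0.92, and it called 6.18% and 6.08% of all genes. In KE the macrophage genes summed to 61.4 to 258 CPM in NK and 190 to 396 CPM in CD8 libraries, and their part in the Jak1 difference was not tested. In WT edgeR called 0 of the 4 genes and DESeq2 0, against 0.785% and 6.31% of all genes, and 1, Jak1, had an unadjusted p under 0.05, against 10.4%.

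Tyk2, Jak2 and Jak3 did not separate the cell types. Over all genotypes NK against CD8 was 1.28-fold for Tyk2 (95% CI 0.832 to 1.97), 0.971-fold for Jak2 (95% CI 0.515 to 1.83) and 0.834-fold for Jak3 (95% CI 0.372 to 1.87). For Tyk2 the values by genotype were 0.953-fold in WT, 1.17-fold in KO and 1.88-fold in KE (edgeR FDR 0.576 in KE, 95% CI on the log2 scale -0.17 to 2.00).

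**Figure D3:**
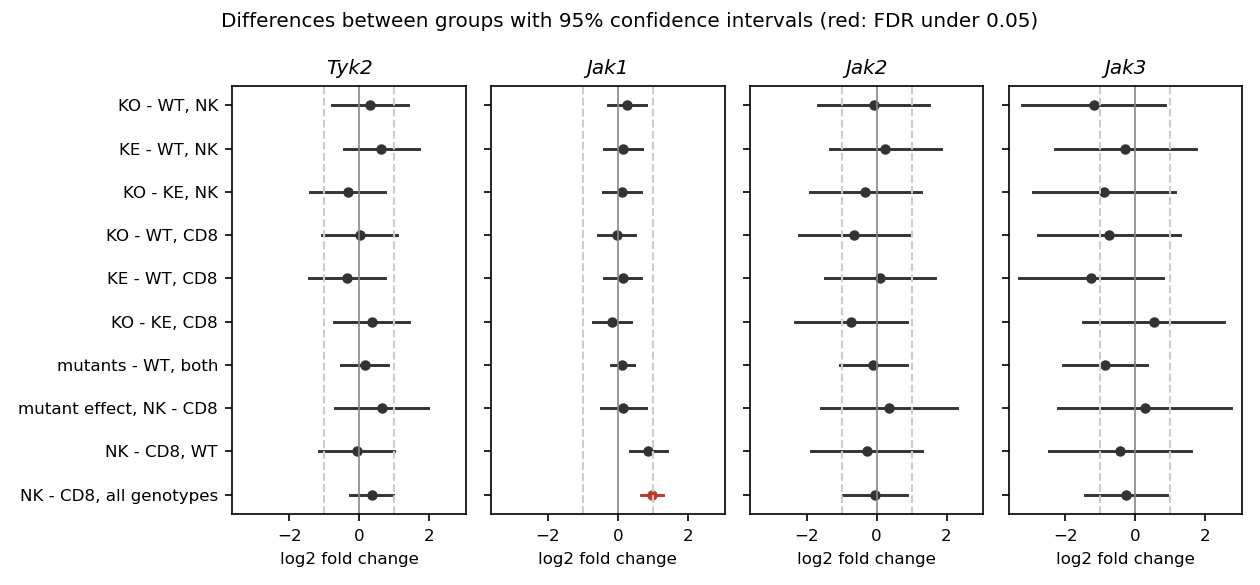
Log2 fold change of each gene in the 10 comparisons (points) with its 95% confidence interval (lines), dashed lines at -1 and 1, and red where the edgeR FDR was under 0.05. The only red entry is Jak1 in NK against CD8 cells over all genotypes, at 0.98, and the intervals of Jak1 are the narrowest and those of Jak3 the widest in every row.

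Across the 12 libraries the 4 genes varied largely apart from each other. Pearson's r of log2 CPM was 0.57 between Tyk2 and Jak1 and 0.21 between Tyk2 and Jak2, and the other pairs lay between -0.18 and 0.11. Genes whose pattern was among the most like that of Jak1 were Emid1 (r = 0.945) and Ugt1a7c (r = 0.945). The 3 most like Jak2 among all genes tested were Axin1 (r = 0.864), Cramp1l (0.863) and Mfsd8 (0.860), for Jak3 Rasd1 (0.878), Itm2c (0.863) and Gm43167 (0.856), and for Tyk2 Gm4617 (0.897), Gm43254 (0.847) and 1700066B19Rik (0.838). Some of these were near the floor, with Gm43167, Gm4617 and Gm43254 averaging at most 3.15 CPM in either cell type. With 13129 genes and 12 libraries, high values of r arise for any gene, and these libraries share 2 cell types, so the values are given as a description.

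Of 40 genes that work with the kinases, 35 were tested, and few passed the test. The list held 4 receptor chains that bind TYK2, 10 that bind JAK1, 8 that bind JAK2, the common gamma chain, 7 STAT genes and 10 inhibitors. In mutants against WT over both cell types, 1 of the 35 was lower and 0 higher by edgeR (0.427% of all genes tested were called), 8 had an unadjusted p under 0.05, all lower (9.96% of all genes), and DESeq2 called 4, all lower (3.45%). The gene that edgeR called was Usp18, an interferon-induced protease that holds JAK1 off the interferon receptor chain IFNAR2. Usp18 lay at 278 ± 3.43 CPM in NK WT (SD, n = 2), 38.5 ± 43.4 CPM in NK KO and 21.0 ± 5.08 CPM in NK KE, and at 281 ± 53.4 CPM in CD8 WT, 7.09 ± 8.07 CPM in CD8 KO and 2.29 ± 3.03 CPM in CD8 KE. Its log2 fold change was -4.71 (SE 0.76, FDR 0.0310 by edgeR), a call that was lost when the replicate number was added to the model. All 8 mutant libraries lay below all 4 WT libraries, yet the FDR ranged from 0.0247 to 0.145 when each library was left out and passed 0.05 in 2 of the 12 fits, those without NK KO 1 and without CD8 KE 1.

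The 3 further genes that DESeq2 called in that comparison were receptor chains, named after their values were seen. Il10ra, a chain that binds JAK1, lay at 492 ± 78.6 CPM in CD8 WT, 124 ± 9.59 CPM in CD8 KO and 69.0 ± 60.4 CPM in CD8 KE, and 284 ± 49.2 CPM in NK WT, 122 ± 2.49 CPM in NK KO and 232 ± 0.619 CPM in NK KE. Over both cell types edgeR gave an FDR of 0.0536, and in NK KE the log2 difference from WT was -0.29 (edgeR unadjusted p 0.575). Ifngr2 and Csf2rb are chains that bind JAK2. Ifngr2 lay at 25.6 and 113 CPM in NK WT, 19.5 and 0.0736 CPM in NK KO and at most 0.223 CPM in NK KE, with at most 2.41 CPM in the CD8 libraries. Csf2rb lay at 10.2 and 52.5 CPM in NK WT, 3.26 and 0.147 CPM in NK KO and at most 0.0743 CPM in NK KE, with 5.61 and 0.0731 CPM in CD8 WT and 0 in the other CD8 libraries. The 2 NK WT libraries and NK KO 1 were those with high macrophage sums. The part of the macrophage content in these values was not tested.

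Within single cell types, edgeR called 0 of the 35 genes in each of the 4 comparisons of a mutant with WT, in which it called 0% to 0.0838% of all genes. The genes with an unadjusted p under 0.05 numbered 4 for NK KO, 6 for NK KE, 7 for CD8 KO and 9 for CD8 KE, where 6.35%, 6.06%, 4.84% and 5.62% of all genes had one. DESeq2 called 0, 4, 2 and 4 of the 35, against 2.84%, 2.94%, 1.75% and 2.5% of all genes. These DESeq2 calls, named after their values were seen, were Il7r (higher), Usp18, Ifngr2 and Csf2rb (lower) for NK KE, Usp18 and Il10ra (lower) for CD8 KO, and Usp18, Il10ra, Stat2 and 1 further gene (all lower) for CD8 KE. Stat2, a STAT of the type I interferon response, lay at 154 ± 40.8 CPM in CD8 WT and 23.5 ± 22.9 CPM in CD8 KE. The 4 TYK2-binding chains had median log2 differences from WT of -0.24 (KO) and -0.085 (KE) in NK cells, where the medians of all genes were -0.01 and 0. For CD8 T cells these medians were -0.22 (KO) and -0.38 (KE), against 0 and 0 for all genes, and 0 of the 4 chains were called. At an unadjusted edgeR p under 0.05 there was 1 of the 4 chains in NK KO, with a lower value, and 1 in CD8 KE, with a higher value, against 0 in NK KE and 0 in CD8 KO. Between the cell types over all genotypes, edgeR called 1 of the 35 genes (4.59% of all genes), 15 had an unadjusted p under 0.05 (19.4% of all genes) and DESeq2 called 5 (12.1% of all genes). The 5 were Il7r and Il21r (lower in NK cells) and Ifnar2, Ifngr2 and Usp18 (higher). In WT alone Usp18 differed by -0.01 on the log2 scale, and Ifngr2 was at most 0.223 CPM in NK KE. The gene called by edgeR was Il7r, the JAK1-binding chain of the IL-7 receptor, which was lower in NK cells by -1.83 on the log2 scale (SE 0.45, FDR 0.0414). This call was lost when the replicate number was added to the model. Il7r passed in 3 of the 12 fits that left out a library, those without NK KO 2, NK KE 1 or CD8 WT 2, and its value was -0.26 in KE alone, where NK KE 1 reached 193 CPM. Of the 2 chains of the type I interferon receptor, Ifnar2 had an unadjusted edgeR p of 0.00434 and an FDR of 0.0662, at 122 to 147 CPM in the NK group means and 59.5 to 81.7 CPM in the CD8 group means.

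Genes that flank Tyk2 on chromosome 9 were examined because a KO or KE allele can carry DNA of another strain around the target. The 5 tested genes nearest on each side and the antisense gene 1700084C06Rik, which overlaps the span of Tyk2 but not its exons, gave 0 of 11 edgeR calls in every comparison between genotypes, where edgeR called 0% to 0.427% of all genes. In the same comparisons at most 2 of the 11 had an unadjusted p under 0.05, against 3.66% to 9.96% of all genes. DESeq2 called at most 2, against 1.19% to 3.45% of all genes, and these were Keap1 and S1pr5, named after their values were seen. Keap1 lay at 0.0836 and 0 CPM in CD8 KE, with 1 and 0 counts, and at 14.8 to 32.7 CPM in the other 10 libraries. Keap1 had an unadjusted edgeR p of 0.000257 and an FDR of 0.123 in CD8 KE against WT. S1pr5, the receptor by which NK cells leave tissues, was called by edgeR between the cell types over all genotypes. It lay at 7.26 to 99.9 CPM in NK and 0 to 4.41 CPM in CD8 libraries. In WT alone its log2 difference was 2.60 and it was not called (edgeR FDR 0.561).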

How the data were processed

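The deposited values are raw read counts per gene in 12 libraries. Per the labels and the methods of the study, polyadenylated RNA (500 pg) was amplified with Smart-seq2. The authors trimmed single-end reads of 50 bases with Trimmomatic 0.32, aligned them with STAR 2.7.1 to mm10, and counted uniquely aligned reads in exons with summarizeOverlaps (GenomicAlignments 1.6.3) against the GENCODE Basic set of GRCm38 release 93. These counts are not normalised, and without molecular identifiers reads are not independent molecules. Total counts were 10378761 to 14732882 per library, and 153 identifiers had no symbol in the names used here.

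Groups and replicate numbers were taken from the sample titles. Genes with a mean normalised count of at least 10 were tested with the robust quasi-likelihood F-test of edgeR 4.0.16 (R 4.3.3, TMM scaling), two-sided, in 1 model with a mean per group over all 12 libraries, and p-values were adjusted over the 13129 genes (Benjamini-Hochberg, FDR). The study itself used DESeq2, which was run as an alternative (1.42.0). Standard errors were taken from the size of the log2 fold change and the F statistic, and 2 was the prior count of log2 CPM. The tests were checked on simulated data only for NK against CD8 cells over all genotypes, with large changes in genes of higher counts. This check does not cover the comparisons between genotypes. Alternatives were DESeq2, RLE size factors, no minimum count, a replicate block, the libraries of 1 cell type alone and each library left out.

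The 4 genes were named as a family. Of the pathway list, the text names up to 2 called genes per role with the smallest FDR, and it names up to 3 genes most like each kinase by r and any of the genes around Tyk2 that were called. Others are said to be named after their values were seen. The members, lists and tests were chosen with earlier results of these data known. Results for some genes that these rules select are not reported here. Protein sequences were not used here.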

Additional observations from a re-analysis of the deposited data

How the results depend on the processing

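The number of the 4 genes called by the FDR and the fold stayed at 0 under all alternatives in 9 of the 10 comparisons. For NK against CD8 cells over all genotypes it was 1, Jak1, with DESeq2 and with RLE size factors, and 0 to 1 with 1 library left out. Jak1 passed without NK WT 2, NK KO 1, CD8 WT 2, CD8 KO 2 or CD8 KE 1, since its fold lies at the limit. The overall order of levels held in 33.3% of the groups by exon length and 66.7% by coding length.

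Signs of differences that were not called turned with single libraries. The log2 fold changes with 1 library left out ranged, for KO against WT in NK cells, from -0.21 to 0.69 for Tyk2, -0.058 to 0.53 for Jak1, -1.77 to 0.68 for Jak2 and -1.99 to 0.79 for Jak3, and for KE from -0.068 to 0.51 for Jak2 and -1.09 to 1.69 for Jak3. For KO against KE in NK cells they ranged from -0.85 to 0.058 for Tyk2, -0.21 to 0.38 for Jak1 and -2.02 to 0.43 for Jak2. For CD8 T cells the ranges were -0.35 to 0.49 for Tyk2, -0.14 to 0.051 for Jak1 and -1.37 to 0.34 for Jak3 in KO, -0.70 to 0.15 for Tyk2, -0.18 to 0.41 for Jak1 and -0.31 to 0.70 for Jak2 in KE, and -0.45 to 0.15 for Jak1 between KO and KE. For both mutants against WT they were -0.021 to 0.40 for Tyk2, -0.51 to 0.21 for Jak2 and -1.27 to 0.12 for Jak3. NK against CD8 cells gave -0.42 to 0.43 for Tyk2, -0.68 to 0.33 for Jak2 and -2.42 to 0.66 for Jak3 in WT, and -0.61 to 0.21 for Jak2 and -0.92 to 0.13 for Jak3 over all genotypes. The difference of the mutant effects ranged from -0.0022 to 0.32 for Jak1, -0.49 to 0.79 for Jak2 and -0.80 to 2.25 for Jak3. Tyk2 in CD8 KO was -0.021 with DESeq2, -0.021 with RLE size factors and -0.0012 with the CD8 libraries alone. Within KO libraries Jak2 was 0.28, and within KE libraries Jak3 was 0.54, between NK and CD8 cells (log2, contrasts added after the data were seen).

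No pairing of libraries by replicate number was seen, as the deviations of same-numbered libraries correlated by -0.026 to 0.037 over 15 pairs of groups. The spread between replicates was wide, so that this check cannot exclude a pairing. With a replicate block, 0 of the 4 genes were called in any comparison, Jak1 was at 0.98 between NK and CD8 cells (edgeR FDR 0.00723), and the calls of Usp18 (FDR 0.0706) and Il7r (FDR 0.0641) were lost. The block moved the count over all genes from 56 to 31 for both mutants against WT, where DESeq2 gave 453 and no minimum count gave 402, and from 602 to 481 for NK against CD8 cells, where these gave 1585 and 1231. Between genotypes within a cell type edgeR called 0 to 11 genes, DESeq2 156 to 386, edgeR without a minimum count 82 to 256 and with the block 0 to 4. In WT alone NK against CD8 cells gave 103, 829, 537 and 77 genes in the same order, and the difference of the mutant effects 2, 267, 180 and 2. Each group has 2 libraries, and what depth limits in Jak2 and Jak3 was not tested.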
